A study of Gallus gallus with 9 samples.

Results

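Myostatin (MSTN) and the genes of 7 proteins linked to it outside the cell or at its surface were followed through 3 stages of chicken muscle cell culture. They were taken by symbol from the deposited gene tables: the ligand MSTN, the inhibitor genes FST, FSTL3, WFIKKN1 and WFIKKN2, the follistatin-like gene FSTL1, and the type II receptor genes ACVR2A and ACVR2B. All 8 were listed in each of the 9 tables, among 24881 Ensembl genes. RNA sequencing had been done on primary myoblasts from the skeletal muscle of chicken embryos, with 3 libraries per stage and all cells at passage 1. PM libraries came from myoblasts at the end of serial plating, a step that enriches them. Myoblasts labelled as proliferating, in RPMI-1640 with 15% FBS, gave the GM libraries. Cells labelled as differentiated myotubes, held for 4 days in RPMI-1640 with 2% horse serum, gave the DM libraries. Both media contained 2% penicillin and streptomycin. No strain, sex, embryonic age or number of embryos is given, and nothing says that the replicates were separate cultures, so p-values here reflect the spread among these libraries alone, which may be technical.

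Myostatin is a secreted ligand of the TGF-beta superfamily, known in birds and mammals as a brake on skeletal muscle growth. It is made as a precursor that furin-type proteases cut, and its propeptide holds it inactive until tolloid proteases cut that in turn. The active dimer binds the type II receptors ACVR2B and ACVR2A, which recruit a type I receptor that phosphorylates SMAD2 and SMAD3. Follistatin (FST), FSTL3 and the WFIKKN proteins, also called GASPs, bind the ligand in the extracellular space and keep it from its receptors. Activins and GDF11 use the same receptors and are bound by some of the same inhibitors.

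The libraries held 15731818 to 27110310 reads in Ensembl genes. The labelled cell type was checked against 7 muscle markers. Of 11 muscle symbols chosen, ACTA1, ACTC1, TNNT2 and MYMK (myomaker, listed as TMEM8C) were paired with no gene, so the sums below leave them out. MYOD1, a transcription factor of the muscle lineage, was at 332 ± 11.7 FPKM in PM, 254 ± 37.2 in GM and 145 ± 11.2 in DM (SD, n = 3 here and throughout). MYOG, a factor of terminal differentiation, was at 177 ± 8.53 FPKM in PM, 367 ± 138 in GM and 299.9 ± 27.03 in DM, and DES, the gene of the muscle intermediate filament desmin, at 155 ± 3.66, 811 ± 407 and 142 ± 7.98 FPKM. FPKM, the authors' read count scaled by gene length and sequencing depth, is the scale of every level given. The summed level of the 7 muscle markers was 1294 to 1370 FPKM in PM, 1943 to 3658 in GM and 1156 to 1215 in DM. The low DM sums came with low MYF5 and MYOD1, and against GM also with lower DES and MYL1. MYOG, MYL1, CHRNA1 and TMEM8C had higher means in DM than in PM, but of these only CHRNA1 had a mean above that in GM. MYL1, a myosin light chain gene, averaged 366 FPKM in DM, 631 in GM and 138 in PM. CHRNA1, an acetylcholine receptor subunit gene, averaged 110.1 in DM, 107.7 in GM and 61.5 in PM. TMEM8C, the gene of the fusion protein myomaker, averaged 86.8 in DM, 118 in GM and 71.4 in PM. Of the 7 markers 3, MYOG among them, were called higher and 2, MYF5 and MYOD1, lower in DM against PM. In DM against GM none was called higher and 3 were called lower, MYF5, MYOD1 and DES. Over all genes tested 66.2% were called in DM against PM and 61.1% in DM against GM. Among 8 fibroblast markers the sums were 2107 to 2183 FPKM in PM, 1062 to 1764 in GM and 3850 to 4409 in DM. GM replicate 3 stood apart, with the highest muscle sum and the lowest fibroblast sum of all libraries. Sums over 8 macrophage markers were 718 to 758 FPKM in PM, 82.3 to 190.3 in GM and 152 to 182 in DM. No muscle, fibroblast or macrophage marker was at 0 in all libraries, whereas the 4 endothelial markers in the tables stayed under 1 FPKM throughout.

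Levels of the 8 genes spanned several orders of magnitude. FSTL1 and ACVR2A stood first and second in every stage. In PM they were followed by FSTL3, WFIKKN1, MSTN, FST, ACVR2B and WFIKKN2, and the ranges of WFIKKN1 and MSTN overlapped. In GM the order after ACVR2A was MSTN, FSTL3, FST, ACVR2B, WFIKKN1 and WFIKKN2, with overlap between FST and ACVR2B. MSTN followed ACVR2A in DM as well, ahead of WFIKKN1, FSTL3 and FST, whose neighbouring ranges overlapped, and then ACVR2B and WFIKKN2. ACVR2A is listed with a length of 3121 bases, but its deposited FPKM corresponds to 2184 bases. With the listed length its mean levels would be 40.7 in PM, 50.4 in GM and 36.9 in DM, which would not alter its rank.

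**Figure D1:**
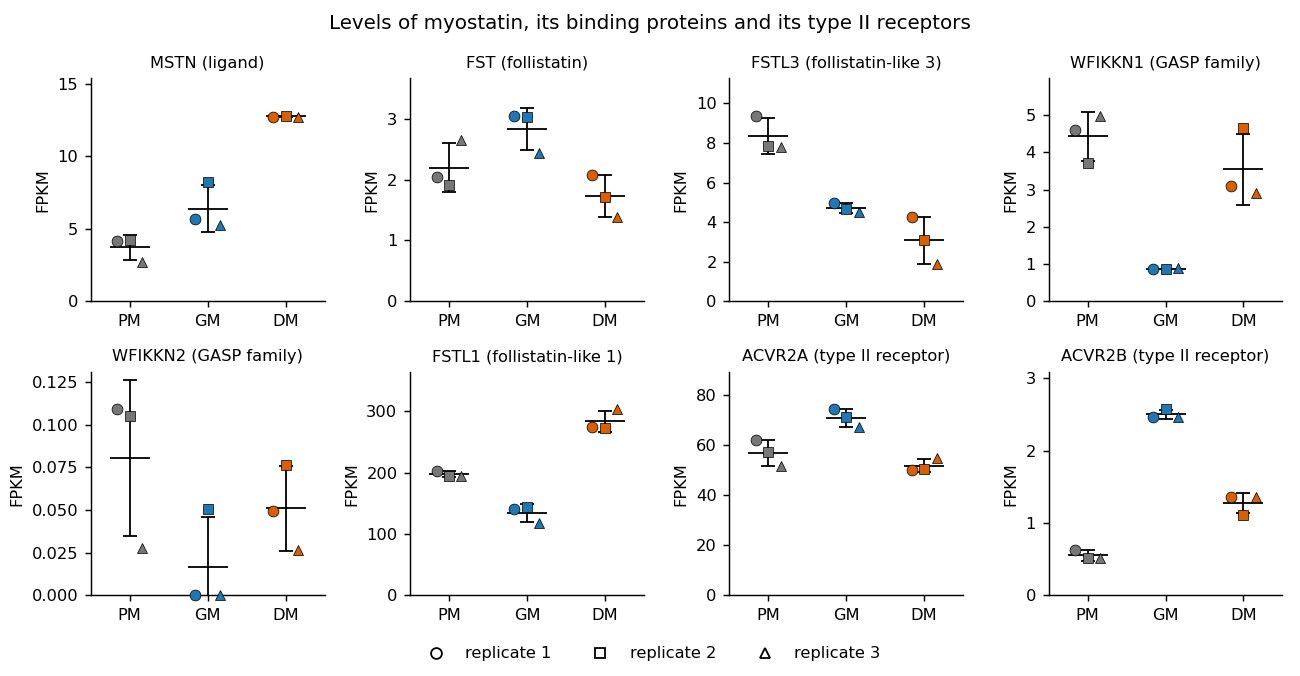
FPKM of each gene in every library of PM, GM and DM, with replicates 1 to 3 as circle, square and triangle, the mean as a bar and the SD as whiskers, on a linear axis from 0 that differs between panels. MSTN climbs over the stages to 12.7 to 12.8 FPKM in DM, WFIKKN1 dips to 0.869 to 0.881 FPKM in GM, and ACVR2B peaks there at 2.46 to 2.57 FPKM.

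Expression of the ligand was highest in DM, the cells labelled as differentiated. MSTN (ENSGALG00000039458, chromosome 7, 218083 to 223575, plus strand, in a build not given in the sources used here) was at 4.20, 4.25 and 2.75 FPKM in PM replicates 1 to 3. It was at 5.66, 8.27 and 5.25 FPKM in GM and at 12.7, 12.8 and 12.7 FPKM in DM, from 65 to 80 reads per library in PM, 157 to 216 in GM and 314 to 338 in DM. No library of one stage overlapped another stage, and the DM libraries lay closest together, with an SD of 0.0554 FPKM. That SD is smaller than counting error at these read numbers, so it is no measure of precision. MSTN rose in DM against PM (fold change 3.23, log2 fold change 1.69, SE 0.20, edgeR's quasi-likelihood test, p adjusted by Benjamini-Hochberg over 14796 genes, adjusted p = 1.71e-05). It also rose in DM against GM (log2 fold change 1.06, SE 0.19 and edgeR adjusted p = 4.40e-04). The rise in GM against PM was smaller (log2 fold change 0.63, SE 0.20 and edgeR adjusted p = 0.0154) and rested on single libraries, since the call was lost without GM replicate 2 (log2 fold change 0.43, edgeR adjusted p = 0.0646) or without PM replicate 3 (log2 fold change 0.46, edgeR adjusted p = 0.0679). In bulk RNA a change in the share of expressing cells and a change in RNA per cell cannot be told apart.

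Most genes of these cells changed, which sets the scale for the counts that follow. Of all genes tested, 66.1% were called in GM against PM (32.0% higher and 34.1% lower in GM). Of the 8 genes followed here 7 were tested, and 5 of these passed, 2 higher and 3 lower. In DM against GM 61.1% of genes were called (30.8% higher and 30.3% lower in DM), and 6 of the 7 passed, 3 each way. For DM against PM the share was 66.2% (33.5% higher and 32.7% lower in DM), and 5 of the 7 passed, 3 higher and 2 lower. FPKM ranges of the stages did not overlap for 6, 7 and 4 of the 7 genes tested in these comparisons, against 69.8%, 66.5% and 73.7% of all genes tested. The filter on low counts kept 7 of the 8 and left out WFIKKN2. The median absolute log2 fold change of those 7 was 0.71, 0.91 and 0.45 in the 3 comparisons, against 0.59, 0.50 and 0.59 over all genes. Each pair of comparisons shares 3 libraries, so opposite moves into and out of GM are not independent.

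**Figure D2:**
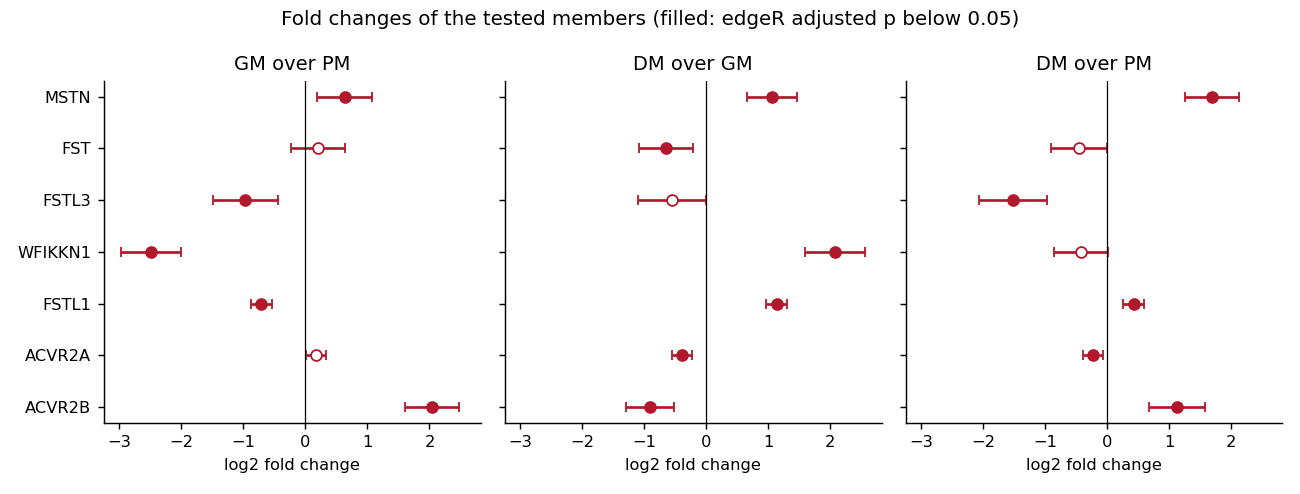
Log2 fold change of the 7 genes tested in GM over PM, DM over GM and DM over PM, with points as edgeR estimates, whiskers as 95% intervals and filled points where the adjusted p was below 0.05. MSTN lies above 0 in all 3 panels, while WFIKKN1, FSTL1 and ACVR2B change sides between GM over PM and DM over GM.

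The follistatin-type inhibitors went down where they changed. FSTL3 encodes a secreted glycoprotein that binds activins and myostatin (ENSGALG00000042356, chromosome 28, 2762167 to 2769464, plus strand). Its libraries were at 9.39, 7.83 and 7.82 FPKM in PM, 4.99, 4.66 and 4.50 in GM, and 4.25, 3.09 and 1.89 in DM. FSTL3 levels thus stepped down without overlap between stages, with DM more spread than the others. Compared with PM, FSTL3 fell in DM (log2 fold change -1.52, SE 0.25 and edgeR adjusted p = 2.52e-04) and in GM (log2 fold change -0.97, SE 0.24 and edgeR adjusted p = 0.00414). DM against GM gave a log2 fold change of -0.55 (SE 0.25, 95% interval -1.10 to 0.00260), which did not pass (edgeR adjusted p = 0.0783). That value was -0.87 without DM replicate 1, where it passed (edgeR adjusted p = 0.0106), and -0.29 without DM replicate 3. It also passed on log2(FPKM + 1), on log2(FPKM + 0.1) and with the gene length trend removed (limma adjusted p = 0.0320 and 0.0328, edgeR adjusted p = 0.0328). DM libraries held only 31 to 75 reads of this gene.

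FST, the gene of follistatin itself, differed less (ENSGALG00000014908, chromosome Z, 16072649 to 16079246, plus strand). It was at 2.04, 1.90 and 2.66 FPKM in PM, 3.05, 3.02 and 2.44 in GM, and 2.08, 1.71 and 1.39 in DM. GM libraries were the highest on average, but only GM and DM were free of overlap. FST fell in DM against GM (log2 fold change -0.65, SE 0.20 and edgeR adjusted p = 0.0138), a call that did not hold without DM replicate 3 (log2 fold change -0.51, edgeR adjusted p = 0.0617). Neither of the other contrasts passed. The log2 fold change was 0.21 in GM against PM (95% interval -0.23 to 0.64, edgeR adjusted p = 0.371) and -0.44 in DM against PM (95% interval -0.89 to 0.00420, edgeR adjusted p = 0.0746). Without DM replicate 1 the fall against PM passed (log2 fold change -0.61, edgeR adjusted p = 0.0319). Gene-level counts hold no information on the splice forms of follistatin.

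WFIKKN1 showed the deepest dip of the inhibitors. It encodes a secreted protein with several protease inhibitor domains and a follistatin-like domain, which in mammals binds myostatin and GDF11 (ENSGALG00000000044, chromosome 14, 13618722 to 13621217, plus strand). In PM the libraries were at 4.61, 3.70 and 4.98 FPKM, in GM at 0.869, 0.873 and 0.881, and in DM at 3.09, 4.64 and 2.90. The 3 GM libraries, from 35 to 42 reads each, were nearly identical and lay below all others, whereas PM and DM overlapped. Counting error at so few reads is larger than the spread among these GM libraries, so their closeness is no measure of precision. WFIKKN1 fell in GM against PM (log2 fold change -2.49, SE 0.22 and edgeR adjusted p = 2.72e-06) and rose in DM against GM (log2 fold change 2.07, SE 0.22 and edgeR adjusted p = 1.05e-05). With a pseudocount of 1 FPKM, which damps low levels, these values were -1.53 and 1.26 (limma adjusted p = 1.70e-05 and 6.78e-05). The DM level was not called different from PM (log2 fold change -0.42, 95% interval -0.85 to 0.0178, edgeR adjusted p = 0.0831). Without DM replicate 2, the highest of its stage, it passed (log2 fold change -0.65, edgeR adjusted p = 0.0141).

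The paralog WFIKKN2, whose mammalian protein also binds myostatin, was barely detected (ENSGALG00000007367, chromosome 18, 10189967 to 10193843, minus strand). PM libraries held 3, 3 and 1 reads, GM libraries 0, 2 and 0, and DM libraries 2, 3 and 1. All of these are at or under a floor of 3 reads per library, equal to 0.111 to 0.191 CPM, so no fold change is given and a difference between stages was not detectable at this depth. The floor covers counting error only.

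FSTL1, the most abundant of the 8, was lowest in GM and highest in DM. It encodes a secreted glycoprotein with a follistatin-like domain, made by many mesenchymal cells, and is not an established myostatin inhibitor (ENSGALG00000014970, chromosome 1, 79864143 to 79907705, plus strand). Levels were 203, 195 and 194 FPKM in PM, 141, 144 and 118 in GM, while DM libraries stood at 274, 273 and 303. Stages were fully separated, in the order DM, PM and GM from high to low. FSTL1 fell in GM against PM (log2 fold change -0.71, SE 0.08 and edgeR adjusted p = 9.80e-06), rose in DM against GM (log2 fold change 1.14, SE 0.08 and edgeR adjusted p = 3.32e-07) and rose in DM against PM (log2 fold change 0.43, SE 0.08 and edgeR adjusted p = 3.81e-04). With the trend of level on gene length removed, the last of these was 0.17 (edgeR adjusted p = 0.0412). The fibroblast marker sums given above had the same order of stages, and 7 of their 8 genes rose and 1 fell in DM against GM. In GM against PM the list was mixed, with 2 genes higher and 3 lower: THY1 averaged 202 FPKM in GM and 498 in PM, and PDGFRA 15.9 in GM and 4.20 in PM. Sums over 5 smooth muscle and myofibroblast markers also had this order of stages, at 1550 to 1644 FPKM in PM, 364 to 476 in GM and 2862 to 3438 in DM, as did those over 5 tendon and cartilage markers, at 15.0 to 19.1, 8.01 to 11.005 and 41.8 to 44.3 FPKM. Single tendon and cartilage markers were mixed, with 2 of 5 called higher and 1 lower in DM against GM. In DM against PM 3 of them were called higher and 2 lower. GM replicate 3 was lowest of all libraries in FSTL1 and in the fibroblast and tendon sums, while GM replicate 2 was lowest in the smooth muscle sum. Without GM replicate 3 the FSTL1 log2 fold change in GM against PM was -0.64 (edgeR adjusted p = 1.59e-06). The part of these cell types in the FSTL1 result was not tested.

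The receptors differed in level and in pattern. ACVR2A encodes a type II receptor for activins, myostatin and some bone morphogenetic proteins (ENSGALG00000012444, chromosome 7, 34687035 to 34741921, plus strand). It was at 62.0, 57.2 and 51.7 FPKM in PM, 74.3, 71.2 and 67.2 in GM, and 50.1, 50.4 and 54.9 in DM. GM libraries lay above all others, and PM and DM overlapped. ACVR2A fell in DM against GM (log2 fold change -0.40, SE 0.07 and edgeR adjusted p = 6.59e-04), and its value in GM against PM did not pass (log2 fold change 0.17, 95% interval 0.00640 to 0.33, edgeR adjusted p = 0.0631). That contrast passed with DESeq2 and with its size factors (adjusted p = 0.0407 and 0.0422), in a fit of PM and GM alone (edgeR adjusted p = 0.0297), with PM replicate 1 or GM replicate 3 left out (edgeR adjusted p = 0.0310 and 0.0431), and on log2(FPKM + 1) and log2(FPKM + 0.1) (limma adjusted p = 0.00601 and 0.00592), and was 0.01 with the length trend removed. On log2(FPKM + 0.1) the median of all genes itself moved to 0.13, and ACVR2A lay 0.18 above it. In DM against PM ACVR2A fell by 0.23 on the log2 scale (edgeR adjusted p = 0.0168). This call was lost on both FPKM scales (limma adjusted p = 0.164 and 0.162) and without PM replicate 1, DM replicate 1 or DM replicate 2 (edgeR adjusted p = 0.0720, 0.0511 and 0.0708).

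ACVR2B, the type II receptor with the highest affinity for myostatin in mammals, was far less abundant than ACVR2A (ENSGALG00000006158, chromosome 2, 5768485 to 5858475, minus strand). PM libraries were at 0.629, 0.509 and 0.506 FPKM from 16 to 20 reads each. GM libraries were at 2.46, 2.57 and 2.47 FPKM, and DM libraries at 1.36, 1.11 and 1.36. The stages were fully separated, with GM highest, DM between and PM lowest. ACVR2B rose in GM against PM (fold change 4.12, log2 fold change 2.04, SE 0.20 and edgeR adjusted p = 5.09e-06) and in DM against PM (log2 fold change 1.13, SE 0.21 and edgeR adjusted p = 5.10e-04), and fell in DM against GM (log2 fold change -0.91, SE 0.18 and edgeR adjusted p = 8.82e-04). With a pseudocount of 1 FPKM the rises were 1.18 and 0.56 (limma adjusted p = 3.85e-06 and 4.02e-04). An unnamed gene of 110 bases lies inside ACVR2B on the same strand (ENSGALG00000028088), and it held 1 read over all libraries. None of the other 7 genes overlaps another listed gene.

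Ratios within a library do not depend on the scaling between libraries, and they set the inhibitors against the ligand. The summed level of FST, FSTL3, WFIKKN1 and WFIKKN2 was 15.1 ± 1.35 FPKM in PM, 8.45 ± 0.562 in GM and 8.40 ± 1.90 in DM. Divided by the MSTN level of the same library, it gave 3.85, 3.19 and 5.64 in PM, 1.57, 1.04 and 1.49 in GM, and 0.743, 0.742 and 0.488 in DM. Each stage lay below the one before with no overlap, and only in DM did MSTN RNA exceed the summed RNA of these inhibitor genes. The mean log2 ratio was lower by 2.67 in DM than in PM, by 1.61 in GM than in PM and by 1.06 in DM than in GM. Each difference had p = 0.1 in a two-sided exact permutation test, the smallest that 3 against 3 libraries allow, and p = 0.1 after adjustment over 6 tests. These are RNA levels per length and say nothing of protein or of binding. Other ligands that some of these inhibitors bind are outside the ratio. INHBA, an activin subunit gene, averaged 15.6 FPKM in PM, 16.1 in GM and 9.45 in DM, above MSTN in PM and GM. GDF11 and INHBB averaged below MSTN in every stage. Other extracellular binders are outside the sum. Decorin (DCN), which binds myostatin in mammals, averaged 300 FPKM in PM, 259 in GM and 672 in DM, above MSTN in every stage.

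The make-up of the inhibitor RNA also differed between stages. FSTL3 gave 55.5 ± 4.34% of the sum in PM, 55.9 ± 1.69% in GM and 35.9 ± 7.83% in DM. WFIKKN1 gave 29.4 ± 2.52% in PM, 10.4 ± 0.781% in GM and 42.7 ± 8.78% in DM, and FST 14.6 ± 2.32%, 33.5 ± 2.06% and 20.8 ± 2.42%. WFIKKN2 stayed at or under 0.804% in every library. FSTL3 thus led the sum in PM and GM, and in DM the ranges of FSTL3 (30.4% to 44.9%) and WFIKKN1 (32.7% to 48.8%) overlapped.

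Between the receptors the balance moved toward ACVR2B in GM. ACVR2A exceeded ACVR2B 98.6, 112 and 102 times in PM, 30.2, 27.7 and 27.2 times in GM and 36.9, 45.2 and 40.4 times in DM. Stages did not overlap, with PM far above the others. With the listed length of ACVR2A the ratios were 69.0 to 78.6 in PM, 19.0 to 21.1 in GM and 25.8 to 31.6 in DM, and differences between stages on the log2 scale are the same at either length. The mean log2 ratio was lower in GM than in PM by 1.88 and in DM than in PM by 1.36, and 0.52 higher in DM than in GM. For each, the exact permutation test again gave p = 0.1, its smallest possible value.

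**Figure D3:**
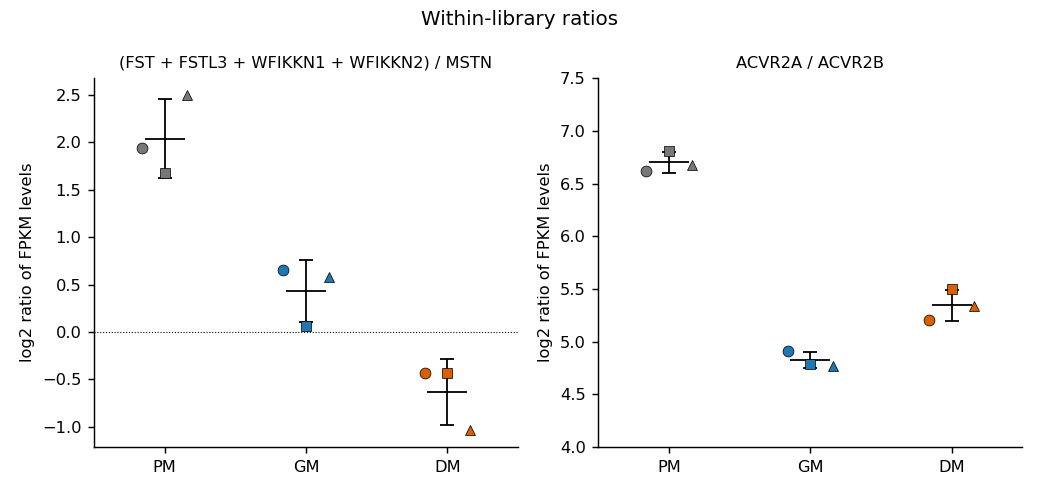
Log2 ratio of FPKM levels within each library for the summed inhibitors over MSTN (left) and ACVR2A over ACVR2B (right, axis from 4), with replicates 1 to 3 as circle, square and triangle, the mean as a bar and the SD as whiskers. The left ratio averages 2.04 in PM, 0.43 in GM and -0.63 in DM, and the right one is lowest in GM at 4.82.

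Genes that share the receptors or act along the pathway were read from 6 lists by role, of which 49 genes were tested. Among other ligands, GDF11, the closest relative of myostatin, and the activin subunit genes INHBA and INHBB were tested, and none was called in GM against PM. In DM against GM 1 rose and 2 fell, with a median log2 fold change of -0.71 against 0.00 over all genes. INHBA averaged 9.45 ± 0.664 FPKM in DM and 16.1 ± 2.09 in GM and fell (log2 fold change -0.71, SE 0.12 and edgeR adjusted p = 3.73e-04). GDF11 and INHBB, named after their values were seen, were low: GDF11 averaged 2.38 ± 0.270 FPKM in DM and 1.16 ± 0.415 in PM (log2 fold change 0.95, edgeR adjusted p = 0.00737), and INHBB averaged 0.203 ± 0.0956 FPKM in DM and 0.513 ± 0.0621 in PM (log2 fold change -1.43, edgeR adjusted p = 0.00708). DM libraries held only 6, 10 and 15 reads of INHBB. On log2(FPKM + 1), which damps such low levels, the INHBB value was -0.33 (limma adjusted p = 0.0102). The list count in DM against GM came to 1 without DM replicate 1, and the GDF11 rise in that contrast was lost in 7 of 17 alternatives.

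Of the proteases and latency proteins that act on the precursor, 5 were tested. In GM against PM 1 rose and 4 fell (median log2 fold change -0.51, all genes -0.01), and in DM against GM 3 rose and 1 fell (median 0.45). PCSK6, a furin-type protease, averaged 27.9 ± 3.64 FPKM in DM and 2.81 ± 0.777 in GM and rose (log2 fold change 3.38, SE 0.19 and edgeR adjusted p = 1.24e-07). TLL1, a tolloid protease, averaged 15.98 ± 2.42 FPKM in DM and 2.66 ± 0.653 in GM and rose as well (log2 fold change 2.65, SE 0.19 and edgeR adjusted p = 6.07e-07). In GM against PM TLL1 fell (log2 fold change -1.67, edgeR adjusted p = 1.57e-05), as did FURIN, at 24.7 ± 2.29 FPKM in GM and 30.9 ± 0.970 in PM (log2 fold change -0.47, edgeR adjusted p = 8.10e-04). With the length trend removed the FURIN value was -1.06 (edgeR adjusted p = 5.79e-06).

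Among other extracellular antagonists and binders 14 were tested. In DM against GM 8 rose and 3 fell (median log2 fold change 1.21), in GM against PM 2 rose and 5 fell (median -0.42), and in DM against PM 10 rose and 3 fell (median 0.74, all genes 0.02). Decorin (DCN), a matrix proteoglycan that binds myostatin in mammals, averaged 672 ± 51.5 FPKM in DM and 259 ± 70.6 in GM and rose (log2 fold change 1.44, SE 0.16 and edgeR adjusted p = 3.07e-05). The matrix genes SMOC1 and SMOC2, which carry follistatin-like domains, rose most, SMOC2 to 27.7 ± 2.23 FPKM in DM against 0.893 ± 0.116 in GM (log2 fold change 4.996, SE 0.15 and edgeR adjusted p = 1.65e-09). SPARC, a matrix protein of the same domain class, fell in GM against PM, at 748 ± 60.5 FPKM in GM and 1495 ± 21.5 in PM (log2 fold change -1.15, edgeR adjusted p = 5.13e-07), while the co-receptor gene TGFBR3 rose to 17.996 FPKM in GM against 7.43 in PM (log2 fold change 1.13, edgeR adjusted p = 4.67e-04). The fibroblast, smooth muscle and tendon sums given beside FSTL1 were lower in GM than in PM and higher in DM than in both. Single markers of each list went both ways in GM against PM and in DM against GM. Their part in these counts was not tested.

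**Figure D4:**
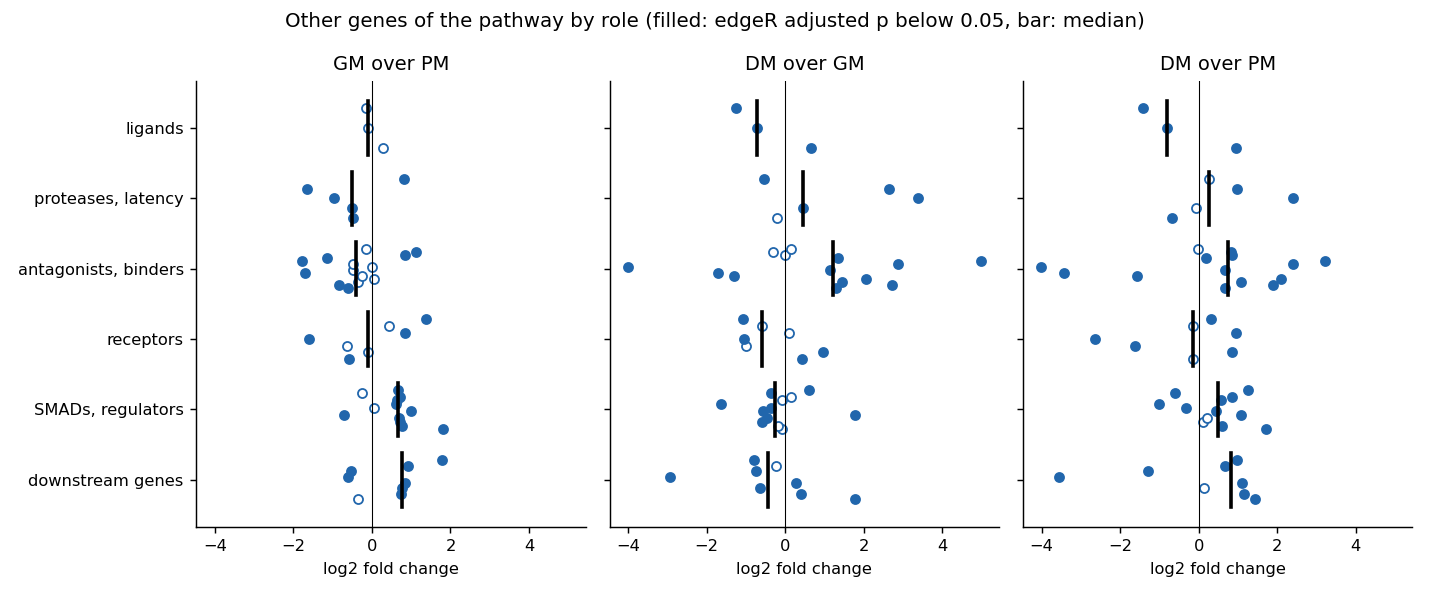
Log2 fold change of the 49 tested pathway genes, 1 point per gene, grouped by role, in GM over PM, DM over GM and DM over PM, with filled points where the edgeR adjusted p was below 0.05 and black bars at list medians. Antagonists and binders lean to the right in DM over GM (median 1.21), and SMAD genes with their regulators lean to the right in GM over PM (median 0.67).

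Of 7 other receptors of the family tested, 2 rose and 2 fell in GM against PM and in DM against GM. Over all genes tested 66.1% and 61.1% were called in these comparisons, about equally in each direction, so the receptor counts are near that share. ACVR1B, a type I receptor that myostatin and activin use, averaged 24.97 ± 2.01 FPKM in DM and 13.4 ± 0.472 in GM and rose (log2 fold change 0.95, SE 0.08 and edgeR adjusted p = 2.01e-06). It did not pass in GM against PM (log2 fold change -0.10, edgeR adjusted p = 0.305). TGFBR2, the type II receptor for TGF-beta, rose to 38.1 ± 2.45 FPKM in GM against 13.2 ± 1.46 in PM (log2 fold change 1.38, edgeR adjusted p = 5.37e-07) and fell in DM against GM (log2 fold change -1.07, edgeR adjusted p = 2.31e-06). BAMBI, a decoy receptor without a kinase domain, fell at each step, averaging 6.91 ± 0.592 FPKM in DM and 40.4 ± 1.05 in PM (log2 fold change -2.64, edgeR adjusted p = 1.17e-07).

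For SMAD genes and their regulators, 9 rose and 1 fell of 12 in GM against PM (median log2 fold change 0.67), and 2 rose and 6 fell in DM against GM (median -0.27). In GM against PM 10 to 11 of the 12 were called over 17 alternatives. With the length trend removed ZFYVE9 of this list was at 0.29 rather than 0.65 in that contrast (edgeR adjusted p = 0.00881). The list median was not computed in that setting. SKI, a co-repressor of SMAD complexes, averaged 17.4 ± 1.87 FPKM in GM and 4.49 ± 0.775 in PM and rose (log2 fold change 1.81, SE 0.13 and edgeR adjusted p = 7.12e-07). Its value stayed at 1.69 or above in every alternative. SMAD4, the partner shared by all receptor SMADs, averaged 9.27 ± 1.15 FPKM in DM and 2.79 ± 0.311 in GM and rose (log2 fold change 1.79, SE 0.16 and edgeR adjusted p = 2.75e-06). SMAD9, a SMAD of the bone morphogenetic protein branch, fell in the same contrast, at 4.28 ± 0.722 FPKM in DM and 13.9 ± 2.13 in GM (log2 fold change -1.64, edgeR adjusted p = 1.28e-05).

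Of 8 genes placed downstream of myostatin or its SMADs in muscle, 5 rose and 2 fell in GM against PM (median log2 fold change 0.76), 3 rose and 4 fell in DM against GM (median -0.44), and 5 rose and 2 fell in DM against PM (median 0.83). The list pools genes whatever direction is expected of them, so its counts and medians are no measure of myostatin activity. MYOD1, MYOG and MYF5 are also among the muscle markers above. The part of myostatin, stage or cell type in these changes was not tested. With the length trend removed the FOXO3 value in GM against PM was 0.48 rather than 0.84. CDKN1A, a cell cycle inhibitor, averaged 111 ± 15.2 FPKM in DM and 38.4 ± 1.92 in PM and rose (log2 fold change 1.44, SE 0.17 and edgeR adjusted p = 3.88e-05). MYF5, a factor of muscle commitment, fell to 36.95 ± 8.65 FPKM in DM against 406 ± 22.2 in PM (log2 fold change -3.55, SE 0.26 and edgeR adjusted p = 3.79e-06), and MYOD1 fell with it (log2 fold change -1.28, edgeR adjusted p = 2.39e-06). TRIM63, a ubiquitin ligase of muscle wasting, rose to 17.8 ± 5.83 FPKM in GM against 4.69 ± 0.708 in PM (log2 fold change 1.78, edgeR adjusted p = 7.17e-05) and fell in DM against GM (log2 fold change -0.79, edgeR adjusted p = 0.00983). GM replicate 3 was the highest TRIM63 library at 24.4 FPKM, against 13.5 and 15.5 in the other GM libraries, and without it the fall in DM was -0.47 (edgeR adjusted p = 0.0126).

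The genes whose profile was most like each of the 7 tested were ranked by Pearson's r of log2 depth-scaled counts over the 9 libraries, among 9720 genes with a symbol. The points share their 3 stages, so high values are common, and they are given as a description. For MSTN the closest were NALCN (r = 0.986), OSBPL11 (0.986), SIN3B (0.985), GNAO1 (0.985) and MTRR (0.981), all of which increased over the stages in mean FPKM. FSTL1 was closest to GAS6 (r = 0.997), STKLD1 (0.996) and ANGPTL2 (0.996). WFIKKN1 came nearest to RPS27L, RPL10A and RBM41 (r = 0.988, 0.987 and 0.986), and ACVR2B to U2SURP, MGEA5 and SCAF11 (r = 0.995, 0.994 and 0.994). For ACVR2A these were RECQL, COL21A1 and NUDCD1 (r = 0.984, 0.977 and 0.977), for FSTL3 PLEKHA3, ITGA3 and ALDOC (r = 0.980, 0.975 and 0.974) and for FST NOP58, RAPGEF5 and CCNO (r = 0.972, 0.939 and 0.937).

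**Figure D5:**
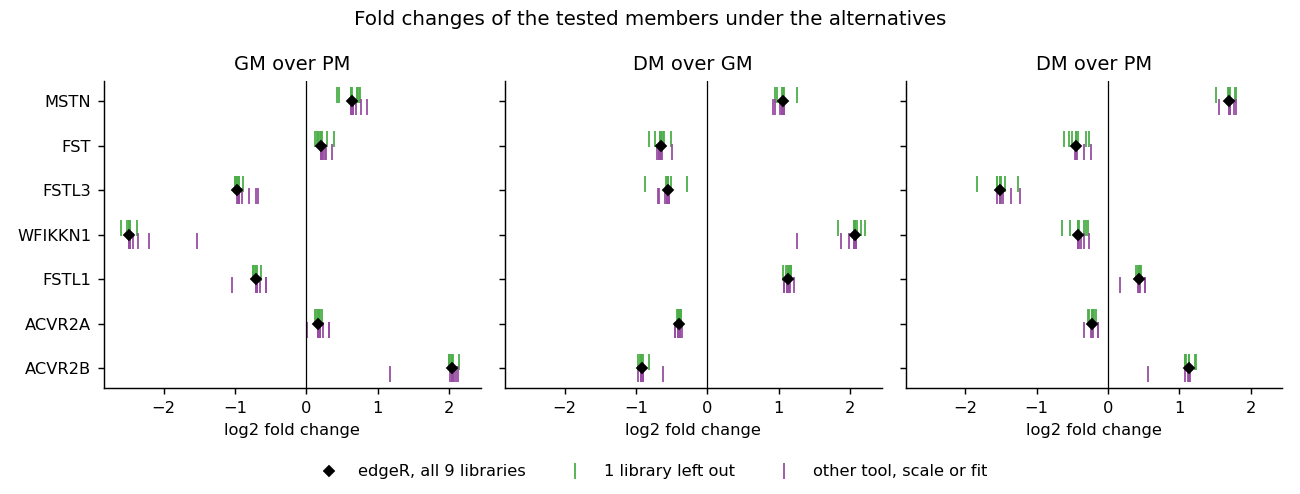
Log2 fold change of the 7 tested genes in the 3 comparisons, with the reported edgeR value as a black diamond, fits without 1 library as green ticks and fits with another tool, scale or sample set as purple ticks. No estimate crosses 0 in any panel, and ACVR2A in GM over PM comes closest to it at 0.01.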

How the data were processed

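Per the file headers, the authors deposited 1 table per library listing for each gene its raw count, FPKM and length. HISAT and HTSeq are named in the submitters' processing notes, without versions; genome build, annotation and strand setting are not stated there or elsewhere in the labels. The tables of PM list 25950 features and those of GM and DM 26591, so any difference in processing cannot be told apart from the PM stage. Only the 24881 Ensembl genes were used.

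The 14796 genes kept by filterByExpr entered edgeR 4.0.16 with TMM scaling (R 4.3.3, quasi-likelihood, robust) over all 9 libraries, with calls at a Benjamini-Hochberg adjusted p below 0.05. SEs were derived from the fold change and the F statistic, and 95% intervals from the SEs. FPKM served for levels and ratios. Alternatives used DESeq2 1.42.0, its size factors, no filter, limma 3.58.1 on log2(FPKM + 1) and log2(FPKM + 0.1), removal of the length trend (lowess, span 0.3), 6-library fits, a replicate block and leaving out each library. Replicates differed beyond sampling noise (chi-square per gene 5.83 to 58.6). The fit was tested on simulated data, with changes placed only in genes of higher counts. It recovered 52.2% to 58.2% of 1.5-fold changes, 86.6% to 89.6% of 2-fold and 97.0% to 98.5% of 4-fold changes. For each fold size only 66 or 67 of 14796 genes were changed there. In the libraries themselves 61.1% to 66.2% of the genes tested were called. Recovery where so many genes change was not tested, so these rates are not those of the fit reported here. Small changes may still go uncalled.

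The genes and lists were chosen with earlier results of these data known. List genes named were up to 3 called per list and comparison, by fold change, with at least 5 FPKM in the higher group, and not all are printed. Of 62 list symbols, 12, among them SMAD2, SMAD7, TGFBR1, BMP1 and PAX7, are paired with no gene in the tables and were not analysed here.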

Additional observations from a re-analysis of the deposited data

How the results depend on the processing

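The number of the 8 genes called stayed within 4 to 6 in GM against PM, 5 to 7 in DM against GM and 4 to 5 in DM against PM over 17 alternatives, and the number of all genes called within 8899 to 9868, 8118 to 9206 and 8944 to 10535. All 357 single-gene values for the 7 tested genes kept their direction. Of these, 336 also kept their side of the threshold, 13 newly passed it and 8 no longer did, and those are given beside their genes above. WFIKKN2 has no test value. The cause of these shifts was not tested. Ratio differences kept their sign in all 48 alternatives, among them raw counts without length. With the replicate block 9537, 8755 and 9580 genes were called in the 3 comparisons, and 5, 6 and 5 of the genes followed here, so it changed no call among them. No sign was seen that the replicate numbers pair the libraries. Deviations of libraries with the same number correlated at -0.107 to 0.101, and 3 of 9 libraries were closest to their own number in another stage. With 3 libraries per stage that differ beyond sampling noise, such a check cannot exclude pairing. No replicate block was run for the ratios, as no sign of pairing was seen. The lists and other named genes were run through the same alternatives as an addition made after seeing the data: 305 of 306 list counts stayed within 1.5 times, and of 1734 single-gene values 21 newly passed and 41 were lost. These include losses of MYF5 in GM against PM in 8 alternatives and of MYOG in DM against PM in 6. With the length trend removed the MYF5 value was -0.33 (edgeR adjusted p = 0.225). CDKN1A in GM against PM passed without GM replicate 3 (edgeR adjusted p = 0.00270). Depth limits WFIKKN2 and, with 16 to 20 reads per library, ACVR2B in PM.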

Other observations

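Antagonists of bone morphogenetic proteins, a part of the list of extracellular binders, went both ways between stages. These genes were named after their values were seen. Noggin (NOG) averaged 0.112 ± 0.142 FPKM in DM and 1.99 ± 0.781 in GM from 1, 0 and 4 reads in DM and 27, 45 and 27 reads in GM, too few in DM for a fold change. Its difference passed the test (edgeR adjusted p = 1.80e-04). Gremlin (GREM1) fell in DM against PM, at 0.481 ± 0.234 FPKM in DM and 4.99 ± 1.39 in PM (log2 fold change -3.44, edgeR adjusted p = 6.77e-06). DM libraries held only 6, 12 and 5 reads of GREM1, so the size of this fall is uncertain. On log2(FPKM + 1) the GREM1 value was -2.0035 (limma adjusted p = 7.21e-06). Chordin (CHRD) rose in DM against GM, averaging 6.72 ± 0.765 FPKM in DM and 2.896 ± 0.799 in GM (log2 fold change 1.28, edgeR adjusted p = 7.84e-05). TWSG1, a cofactor of chordin, passed in none of the 3 comparisons, and its means lay between 70.1 and 74.4 FPKM.

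Another ubiquitin ligase gene linked to muscle wasting, FBXO32, was looked up after the values of TRIM63 were seen. FBXO32 averaged 12.01 ± 0.893 FPKM in DM and 9.499 ± 1.58 in GM and rose (log2 fold change 0.39, edgeR adjusted p = 0.0162), in the contrast where TRIM63 fell. This FBXO32 call was lost without GM replicate 1 or DM replicate 1 (edgeR adjusted p = 0.0673 and 0.0655), and the difference between these genes was not tested. In GM against PM FBXO32 rose (log2 fold change 0.75, edgeR adjusted p = 3.05e-04), as TRIM63 did, and the FBXO32 value was 0.37 with the length trend removed (edgeR adjusted p = 0.0408).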
